A study of Mus musculus with 40 samples.

Results

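The data describe acetylation of histone H3 at lysine 27 (H3K27ac), a mark of active promoters and enhancers, over the genes of the insulin receptor pathway and of glucose transport in cultured mouse fat cell precursors. The 9 genes were Insr, Irs1, Irs2, Pik3r1, Akt2, Foxo1, Pck1, Slc2a1 and Slc2a4, chosen by name out of the 21911 protein-coding genes of the annotation. Each was read over its mm10 gene span plus 5 kb upstream, here called the window. All 9 windows held a peak in at least 1 library, as did those of 15914 protein-coding genes, which formed the background of every test.

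Primary preadipocytes came from the inguinal white fat of C57BL/6 mice that were either wild type (WT) or double knockout (DKO, Hmgn1-/- Hmgn2-/-), lacking a pair of nucleosome-binding proteins. Both genotypes went through the same culture towards brown-like adipocytes, and 3 libraries per genotype were deposited at each of days 0, 3, 6 and 9, which gave 24 peak lists in 8 groups. WT and DKO cultures alike were first given a differentiation medium that held insulin, dexamethasone, IBMX, T3 and rosiglitazone, and then a maintenance medium with insulin and T3, so every later library was made from insulin-treated cells. The study calls them biological replicates, and the labels do not say whether they came from separate cultures or animals, so p-values measure the spread between these libraries. The question of the comparisons was where H3K27ac lay over these genes as the cells converted, and whether it differed without HMGN1 and HMGN2.

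Insulin bound to its receptor, a tyrosine kinase, leads to phosphorylation of adaptor proteins of the IRS family. These recruit phosphatidylinositol 3-kinase, whose lipid product brings AKT to the membrane. In fat cells AKT2 moves vesicles carrying the transporter GLUT4 to the cell surface, which raises glucose uptake, and it keeps the transcription factor FOXO1 out of the nucleus. GLUT1, by contrast, resides at the surface without insulin and serves basal uptake in most cell types.

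The lists held 47448 to 115923 peaks per library, and the peaks of a library covered 20.7 to 96.4 Mb in all, with a mean of 50.7 Mb. DKO day 0 replicate 2 stood apart with broad peaks, a median width of 1076 bp against 313 to 376 bp in the other 23 libraries. WT day 3 replicate 3 had the lowest background, 4.52 reads per kb against 8.62 to 12.9, and DKO day 6 replicate 3 had the fewest peaks. The covered totals also differed by group, with 55.5 to 60.4 Mb in WT but 20.7 to 36.3 Mb in DKO at day 6, and 48.2 to 59.6 Mb in WT but 61.2 to 68.8 Mb in DKO at day 9. The Hmgn2 window had no peak in any of the 12 DKO libraries and 0.781 to 1.80 kb under peaks in each WT library, while the Hmgn1 window was covered in both genotypes and checks nothing about its deletion. Of 6 adipocyte markers, those with a peak summed to 3.45 to 5.36 kb in WT at day 0, with Adipoq, Cidec and Lep at 0, and at day 9 to 37.2 to 46.3 kb for WT against 63.9 to 68.2 kb for DKO, with Lep still at 0. Of 6 brown fat markers 5 had a peak in some library, and Ucp1 had none within its window in any library. The study, which read enhancers tied to genes, names Ucp1 among the brown genes most raised in DKO. Those enhancers were not compared with this window. At day 0 Elovl3 and Cox8b had no peak either. The markers with a peak summed to 0.955 to 1.96 kb for WT at day 0, and at day 9 to 2.89 to 4.05 kb for WT against 7.67 to 9.02 kb for DKO.

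In 7 of the windows the annotation places further genes (all but Akt2 and Pck1), and the mark there cannot be assigned to either gene. The windows held 171 merged regions, numbered along the chromosome within each gene. Sequences are given for some of the regions whose calls differed between days, each as 200 bases around its strongest summit in mm10. The Pck1 promoter is given as the 225 bases before the gene in RefSeq GRCm38.p6. Slc2a4 regions 6 and 8, Akt2 regions 23 and 24 and Insr region 27 were called in every day 9 library and in no day 0 library. Pck1 region 1 and the Pck1 promoter lie before the start of a gene that was nearly free of peaks before day 9. Capitals mark letter matches to the motifs named under the sequences.
Slc2a4 region 6 (chr11:69947200-69947399, + strand): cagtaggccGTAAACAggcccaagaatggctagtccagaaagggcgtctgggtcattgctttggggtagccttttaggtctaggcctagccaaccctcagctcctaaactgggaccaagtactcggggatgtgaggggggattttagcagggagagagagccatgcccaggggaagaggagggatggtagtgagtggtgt
Slc2a4 region 8 (chr11:69949410-69949609, + strand): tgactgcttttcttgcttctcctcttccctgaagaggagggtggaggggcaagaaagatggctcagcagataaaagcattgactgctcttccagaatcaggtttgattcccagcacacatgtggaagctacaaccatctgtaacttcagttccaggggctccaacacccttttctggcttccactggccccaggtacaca
Insr region 27 (chr8:3256474-3256673, + strand): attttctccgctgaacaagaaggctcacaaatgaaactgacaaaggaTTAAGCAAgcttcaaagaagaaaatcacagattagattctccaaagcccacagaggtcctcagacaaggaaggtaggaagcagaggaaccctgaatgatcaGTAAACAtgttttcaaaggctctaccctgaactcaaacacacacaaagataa
Akt2 region 23 (chr7:27624863-27625062, + strand): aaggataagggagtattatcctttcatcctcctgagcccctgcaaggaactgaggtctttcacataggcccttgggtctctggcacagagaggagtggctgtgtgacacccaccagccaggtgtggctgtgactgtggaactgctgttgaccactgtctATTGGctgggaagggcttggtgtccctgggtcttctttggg
Akt2 region 24 (chr7:27625323-27625522, + strand): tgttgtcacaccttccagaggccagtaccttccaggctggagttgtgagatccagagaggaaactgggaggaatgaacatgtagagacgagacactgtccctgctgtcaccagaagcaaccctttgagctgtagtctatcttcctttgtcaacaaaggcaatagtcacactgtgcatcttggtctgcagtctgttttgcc
Pck1 region 1 (chr2:173151393-173151592, + strand): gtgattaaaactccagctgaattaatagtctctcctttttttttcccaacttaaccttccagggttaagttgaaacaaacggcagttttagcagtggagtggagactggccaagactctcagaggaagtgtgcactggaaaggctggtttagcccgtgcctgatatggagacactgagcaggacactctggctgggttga
Pck1 promoter 1 (chr2:173152823-173153047, + strand): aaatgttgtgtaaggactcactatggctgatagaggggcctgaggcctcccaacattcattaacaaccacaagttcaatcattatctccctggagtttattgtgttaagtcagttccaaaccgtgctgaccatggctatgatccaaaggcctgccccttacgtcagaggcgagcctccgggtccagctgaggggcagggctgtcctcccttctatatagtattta
The searches covered both strands and used GTAAACA (FOXO), TTNNGCAA (C/EBP), CCAAT (NF-Y), GGGCGG (SP1), TGACGTCA (CRE), TGACTCA (AP-1, whose reverse complement is TGAGTCA) and a direct repeat of AGGTCA with 1 base between and at most 2 mismatches (the DR1 element that PPARG binds). The FOXO letters GTAAACA occurred in the windows of Slc2a4 region 6, 91 bases before the summit, and of Insr region 27, 48 bases after it. Such a match occurred in 2.73% of all 169358 merged regions and in 3.25% of the 4302 regions called in all libraries of day 9 and none of day 0. Insr region 27 also held TTAAGCAA, a C/EBP match of the kind found in 7.35% of all regions, and Akt2 region 23 held ATTGG, the reverse complement of CCAAT, found in 21.8%. None of these letters lay in the other 4 printed sequences. Insr regions 16 and 21 and Irs2 region 11, also called in every day 9 library and in no day 0 library, are not printed. Their summit windows held no FOXO match. Insr region 21 held CCGCCC, the reverse complement of GGGCGG, found in 4.18% of all regions. A match is a string of letters and no measure of binding.

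Between day 0 and day 9 the H3K27ac length rose over 6 of the 9 genes and fell over 1. Insr, Irs2, Pik3r1, Akt2, Foxo1 and Slc2a4 rose, against 14.1% of all tested genes that rose, and Slc2a1 fell, against 13.1% of all genes that fell. Irs1 and Pck1 did not pass the test. The median difference over the 9 genes was 3.58 kb, beside 0.0287 kb over all genes tested. Covered kb is bounded by window length, and the windows of the 9 genes ran from 10.65 to 162.557 kb. The genes behind the 2 medians were not matched for window length or number of peaks. The test was an exact permutation of the day labels within genotype, two-sided, with Benjamini-Hochberg adjustment over the 15914 genes. In these bulk cultures fewer cells carrying the mark and less mark per cell cannot be told apart, and the adipocyte marker sums given above moved in the same direction over these days. The part of these cell types in the result was not tested. With only the 20000 strongest peaks of each library 0 members passed (adjusted p from 0.0502 upward), as did 0 of the 12965 genes then tested, and within 250 bp of the peak summits 4 did, Pik3r1, Akt2 and Slc2a1 being lost, beside 14.2% of 15933 genes.

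**Figure D1:**
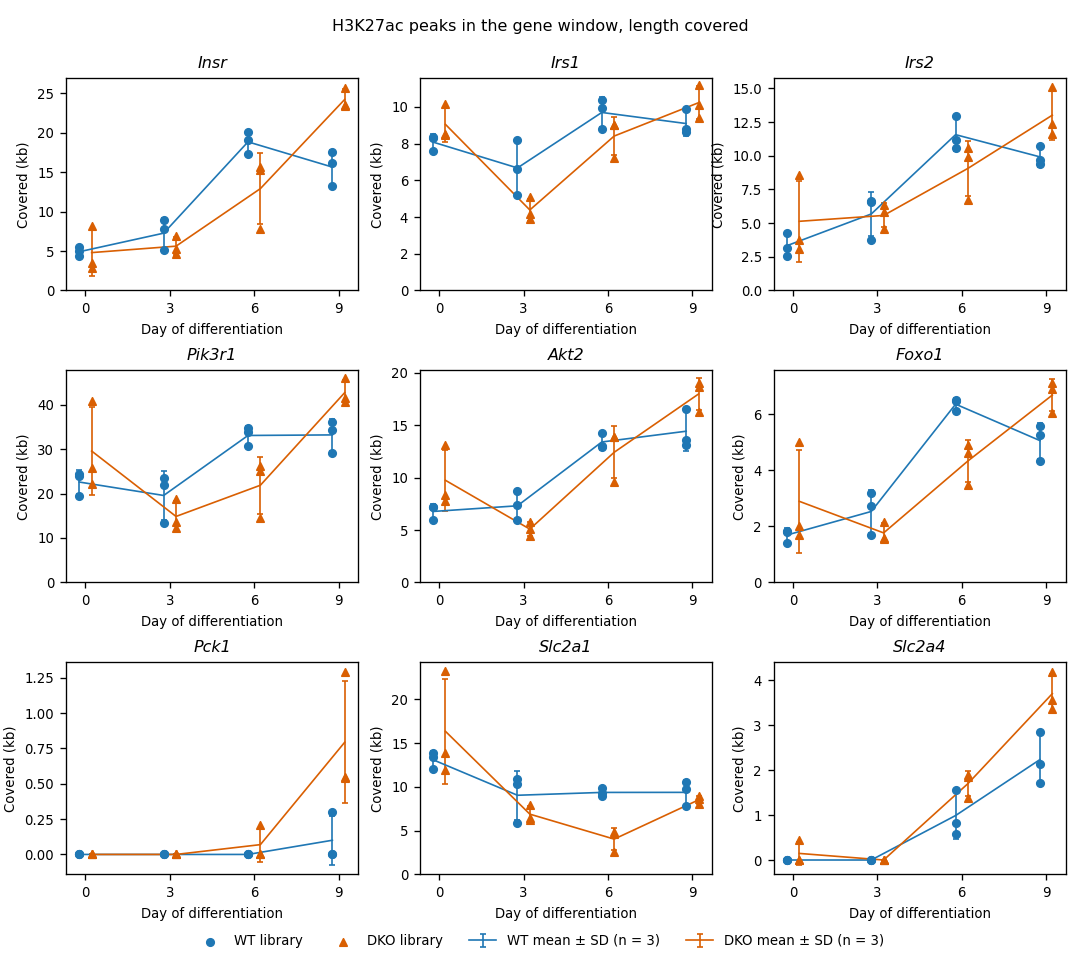
Covered kb under H3K27ac peaks (y axis) in the window of each of the 9 genes by day of culture (x axis), with WT as blue circles and DKO as orange triangles, 1 point per library and lines through the group means ± SD (n = 3). Slc2a4 and Pck1 start at or near 0, Slc2a1 runs downward from day 0, and DKO lies below WT at day 6 and above it at day 9 for Insr, Irs2, Pik3r1 and Foxo1.

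Insr encodes the insulin receptor itself (ENSMUSG00000005534.10, chr8:3122061-3279617, minus strand, window 162.557 kb). With libraries given in the order of their replicate numbers, in WT its peaks covered 4.95, 5.46 and 4.34 kb at day 0, then 7.75, 8.94 and 5.11 kb at day 3, 19.1, 17.3 and 20.2 kb on day 6, and 13.2, 16.1 and 17.6 kb at day 9. In DKO they covered 2.81, 8.18 and 3.43 kb at day 0, then 4.65, 6.91 and 5.31 kb at day 3, 15.7, 15.3 and 7.75 kb on day 6, and 25.7, 23.5 and 23.5 kb at day 9. Every day 9 library of either genotype lay above every day 0 library, and the 3 DKO libraries of day 9 were the highest of all 24. The mean rose from 4.86 kb at day 0 to 19.9 kb at day 9, a difference of 15.1 kb with an adjusted p of 0.0213 by the exact permutation test. As a share of the window, coverage went from 1.73 to 5.50% at days 0 and 3 to 8.14 to 10.8% in WT and 14.4 to 15.8% in DKO at day 9.

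Most of the gain over Insr lay inside the gene rather than at its transcript starts. Regions at transcript starts covered on average 1.47 kb in WT at day 0 and 2.19 kb at day 9, and the other regions 3.44 and 13.5 kb. In DKO the same averages were 1.59 and 2.88 kb at starts and 3.21 and 21.4 kb elsewhere. The promoter region 38 (chr8:3277089-3280436) was called in all 24 libraries. The fold over background of the strongest peak in this region was 15.2 to 18.5 in WT and 7.91 to 15.0 in DKO at day 0. On day 9 it was 20.7 to 25.8 in WT and 27.6 to 31.7 in DKO. Regions 16, 21 and 27, which lie 46.5, 36.6 and 23.0 kb downstream of the gene start, were called in all 6 libraries of day 9 and none of day 0. Region 27 (chr8:3255308-3257432), whose summit sequence is printed above, was called in all 12 libraries of days 6 and 9 and in 1 WT library of day 3. Its highest fold was 6.08 to 8.62 in WT and 11.9 to 13.2 in DKO at day 9, while the groups overlapped for region 16, at 4.06 to 4.94 in WT and 4.21 to 7.12 in DKO. Among the 39 regions of the 9 windows called in all 6 libraries of day 9, the highest fold was above that of WT in every DKO library for 35.9%, beside 18.5% of all 35397 such regions, and below it for 5.13%, beside 8.87%. Region 21 (chr8:3241013-3243434) covered 806 ± 31.8 bp in WT and 1980 ± 169 bp in DKO at day 9 (SD, n = 3). These lengths were not scaled to the covered totals, which were higher in DKO that day. By fold the groups of region 21 lay close, at 5.58 to 7.22 in WT and 7.45 to 7.54 in DKO.

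Irs1 encodes an adaptor that binds the activated receptor (ENSMUSG00000055980.2, chr1:82233101-82291416, minus strand). Its coverage in WT was 7.59, 8.29 and 8.37 kb at day 0, then 8.21, 6.60 and 5.21 kb at day 3, 10.4, 8.79 and 9.93 kb on day 6, and 8.62, 8.79 and 9.88 kb at day 9. DKO libraries had 8.48, 10.1 and 8.51 kb at day 0, then 4.16, 5.08 and 3.92 kb at day 3, 9.01, 9.00 and 7.23 kb on day 6, and 10.1, 11.2 and 9.37 kb at day 9. The mark was thus present before differentiation, its mean was lowest at day 3 in both genotypes, and the day 0 and day 9 libraries overlapped. Irs1 fell by 3.03 kb from day 0 to day 3 (adjusted p = 0.0397, exact permutation), and the mean difference of 1.10 kb from day 0 to day 9 did not pass (adjusted p = 0.107). Without DKO day 0 replicate 2 that difference was 1.37 kb with an adjusted p of 0.0270, and leaving out WT day 3 replicate 3 gave -2.67 kb from day 0 to day 3 with an adjusted p of 0.0872 in the same permutation test. Almost all of the length lay in 1 region of 10902 bp over the start and the single long coding exon (region 11, chr1:82281459-82292360), called in all 24 libraries.

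Irs2 encodes a further IRS adaptor, and FOXO1 is known to activate it in fasted liver (ENSMUSG00000038894.7, chr8:10984681-11008458, minus strand). WT libraries had 3.13, 2.56 and 4.28 kb at day 0, then 6.67, 6.59 and 3.77 kb at day 3, 11.2, 10.6 and 12.9 kb on day 6, and 9.37, 9.65 and 10.7 kb at day 9. DKO libraries had 3.08, 8.60 and 3.73 kb at day 0, then 4.59, 6.33 and 5.79 kb at day 3, 9.87, 10.6 and 6.74 kb on day 6, and 15.1, 12.4 and 11.6 kb at day 9. All day 9 libraries exceeded all day 0 libraries, although DKO day 0 replicate 2, the library with broad peaks, came close. The mean rose from 4.23 to 11.5 kb (difference 7.23 kb, adjusted p = 0.0213, exact permutation). Coverage reached 40.3 to 52.4% of the window in DKO at day 9.

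Upstream of Irs2, region 11 (chr8:11010910-11012184, 3.53 kb before the start) was called in all 6 libraries of day 9 and none of day 0, with 418 ± 226 bp in WT and 874 ± 65.8 bp in DKO at day 9 (SD, n = 3). Its highest fold was 3.17 to 7.07 in WT and 4.56 to 7.56 in DKO, with overlap. Over all 9 windows, 1 region of 66 tested had an unadjusted p under 0.05 in the exact conditional test of genotype, with more calls in DKO, beside 0.456% of all 71228 tested regions, which were those called in 3 to 21 libraries. After adjustment 0 regions passed, in these windows or anywhere else. At an unadjusted p under 0.05 there were 2 regions of either direction without DKO day 0 replicate 2 and 3 without WT day 3 replicate 3. The share over all regions is not given for these settings, so the counts describe these windows alone.

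**Figure D2:**
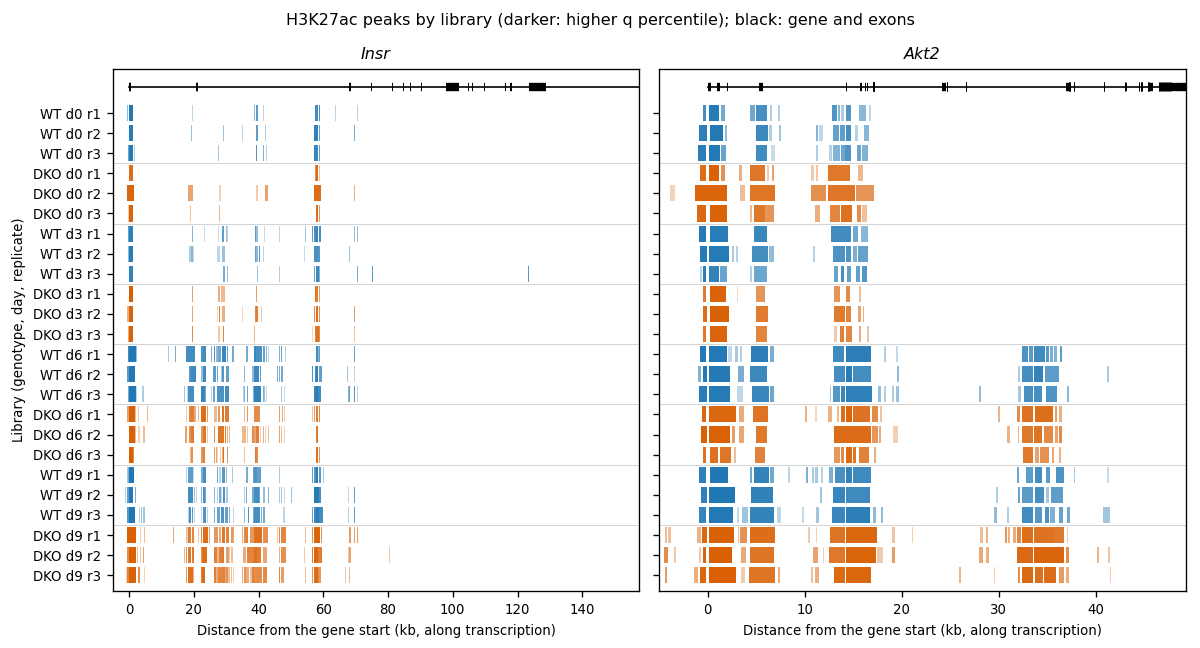
H3K27ac peaks by library (rows, grouped by genotype and day) along the Insr and Akt2 windows, with distance from the gene start in kb along transcription on the x axis, darker bars for a higher q percentile and the gene with its exons in black. Bars at the start are present in all 24 libraries, as are some bars inside the genes (Insr regions 10 and 20, Akt2 region 11). Other bars inside both genes appear at days 6 and 9, as for Akt2 regions 23 and 24, 33.4 and 33.9 kb from the start.

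Pik3r1 encodes the p85 alpha regulatory subunit of phosphatidylinositol 3-kinase (ENSMUSG00000041417.15, chr13:101680563-101768217, minus strand). In WT its window had 19.5, 24.4 and 23.9 kb at day 0, then 22.0, 23.4 and 13.3 kb at day 3, 34.8, 30.6 and 33.8 kb on day 6, and 29.1, 36.2 and 34.3 kb at day 9. In DKO it had 22.1, 40.8 and 25.8 kb at day 0, then 12.2, 18.7 and 13.6 kb at day 3, 26.1, 25.0 and 14.5 kb on day 6, and 46.0, 41.4 and 40.7 kb at day 9. The ranges of days 0 and 9 overlapped through DKO day 0 replicate 2 alone. Pik3r1 rose from a mean of 26.1 kb to 37.9 kb (difference 11.9 kb, adjusted p = 0.0369, exact permutation). Its strongest peak ranked between the percentiles 96.4 and 99.9 of its own list by q in every library, where 100 is the strongest peak, and its 43 regions were the most of the 9 genes, 6 of them called in all 24 libraries.

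Akt2 encodes the AKT kinase that insulin uses for glucose uptake in fat (ENSMUSG00000004056.15, chr7:27591552-27640826, plus strand). WT coverage was 5.99, 7.166 and 7.172 kb at day 0, then 7.35, 8.68 and 5.92 kb at day 3, 12.996, 12.966 and 14.3 kb on day 6, and 13.1, 13.6 and 16.6 kb at day 9. DKO coverage was 7.77, 13.1 and 8.38 kb at day 0, then 4.39, 5.80 and 5.08 kb at day 3, 13.9, 13.8 and 9.56 kb on day 6, and 18.6, 19.0 and 16.3 kb at day 9. Every day 9 library exceeded every day 0 library, by little in the case of the broad DKO day 0 replicate 2, and the mean rose from 8.26 to 16.2 kb (difference 7.95 kb, adjusted p = 0.0213, exact permutation). Regions 23 (chr7:27623431-27625136, intronic) and 24 (chr7:27625195-27628336, over an internal transcript start) were called in all 12 libraries of days 6 and 9 and in none of days 0 and 3. At day 9 the highest fold of region 23 was 6.72 to 9.59 in WT and 13.4 to 15.3 in DKO, and that of region 24 was 8.50 to 9.31 in WT and 11.5 to 19.6 in DKO.

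Foxo1 encodes the transcription factor that AKT restrains (ENSMUSG00000044167.6, chr3:52268336-52353221, plus strand). Its peaks covered 1.42, 1.81 and 1.84 kb in WT at day 0, then 3.18, 2.72 and 1.71 kb at day 3, 6.46, 6.12 and 6.504 kb on day 6, and 4.34, 5.59 and 5.25 kb at day 9. DKO had 1.68, 5.00 and 2.0 kb at day 0, then 1.58, 2.16 and 1.56 kb at day 3, 4.64, 4.90 and 3.48 kb on day 6, and 7.12, 6.90 and 6.04 kb at day 9. With DKO day 0 replicate 2 aside, no day 0 library reached any day 9 library. Coverage made up 1.58 to 7.92% of the window. Foxo1 rose from 2.29 to 5.87 kb (difference 3.58 kb, adjusted p = 0.0213, exact permutation). The q percentile of its strongest peak went from 61.2 to 70.7 in WT and 76.9 to 80.8 in DKO at day 0 to 87.4 to 90.2 in WT and 90.2 to 94.7 in DKO at day 9.

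Pck1, a FOXO1 target in liver, encodes cytosolic phosphoenolpyruvate carboxykinase, which serves glyceroneogenesis in fat (ENSMUSG00000027513.11, chr2:173153048-173159273, plus strand). No library of day 0 or day 3 had a peak in its window. At day 6 only DKO replicate 2 had one, of 0.208 kb, and at day 9 only replicate 2 of WT, of 0.301 kb, while the DKO libraries of day 9 had 1.29, 0.548 and 0.543 kb. The 3 DKO libraries of day 9 were therefore the highest, without overlap, with a fold of 6.36 to 7.36 at the summit beside 3.12 in the WT library. Their strongest peaks stood at q percentiles 66.2, 60.7 and 59.3, and the WT peak at 1.51. These peaks rest on few reads, 22, 18 and 19 at the summit in DKO and 11 in WT, as recovered from the deposited fold and p columns. The mean difference of 0.447 kb from day 0 to day 9 did not pass (adjusted p = 0.127, exact permutation). Both regions lie before the gene: region 2 (chr2:173152132-173152846) was called in 1 WT and 3 DKO libraries of day 9, and region 1 (chr2:173151364-173151938) in 1 DKO library of day 6 and 2 of day 9.

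Slc2a1 encodes GLUT1, the transporter of basal uptake, and was the 1 member that lost coverage (ENSMUSG00000028645.11, chr4:119108711-119137983, plus strand). WT libraries had 12.04, 13.9 and 13.4 kb at day 0, then 10.9, 10.4 and 5.86 kb at day 3, 9.32, 8.96 and 9.85 kb on day 6, and 7.79, 10.6 and 9.73 kb at day 9. DKO libraries had 11.9, 23.2 and 13.9 kb at day 0, then 6.25, 7.96 and 6.47 kb at day 3, 4.91, 4.63 and 2.58 kb on day 6, and 8.04, 8.92 and 8.61 kb at day 9. Each day 9 library lay below each day 0 library. Slc2a1 fell by 5.78 kb, from 14.7 to 8.95 kb (adjusted p = 0.0213, exact permutation), and already by 6.76 kb from day 0 to day 3 (adjusted p = 0.0246). The loss lay mostly outside transcript starts, where the mean went from 10.1 to 6.76 kb in WT and from 12.3 to 6.25 kb in DKO. Of the 9 regions, 2 were called in all 24 libraries, and region 8 (chr4:119131153-119132316), named after its values were seen, was called in all 6 libraries of day 0 and in 1 WT library of day 9. The summed coverage of 4 immune markers went from 15.4 to 16.8 kb (WT) and 17.8 to 38.8 kb (DKO) over the day 0 libraries to 3.47 to 4.36 kb (WT) and 4.97 to 6.13 kb (DKO) over those of day 9, with Cd3e at 0 throughout and Ptprc at 0 in DKO at day 9. Its part in the loss was not tested.

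Slc2a4 encodes GLUT4, the transporter that insulin brings to the surface of fat and muscle cells (ENSMUSG00000018566.14, chr11:69942539-69948188, minus strand). No peak lay in its window at days 0 and 3, except 0.44 kb in DKO day 0 replicate 2. WT libraries had 1.57, 0.58 and 0.826 kb at day 6 and 1.71, 2.85 and 2.15 kb at day 9, and DKO libraries had 1.89, 1.84 and 1.38 kb at day 6 and 4.19, 3.56 and 3.37 kb at day 9. The 3 DKO libraries of day 9 were the highest and did not overlap with any other group, and all day 9 libraries exceeded all day 0 libraries. The mean rose from 0.0733 to 2.97 kb (difference 2.90 kb, adjusted p = 0.0213, exact permutation).

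Within each genotype the highest fold over Slc2a4 was larger in every library of day 9 than in any of day 6. Among the WT libraries of a day, fold did not follow length, while among the DKO libraries of a day both had the same order. The highest fold was 6.33, 7.03 and 7.91 in WT and 8.72, 8.38 and 5.98 in DKO at day 6, and 7.99, 8.76 and 10.4 in WT and 14.8, 13.5 and 13.02 in DKO at day 9. The q percentile of the strongest peak was 63.7 to 70.1 in WT and 54.5 to 78.5 in DKO at day 6, and 70.6 to 81.8 in WT and 86.8 to 90.2 in DKO at day 9. Day 6 groups overlapped on both measures, and day 9 groups did not. Such a higher DKO group at day 9 was seen for Insr, Irs2, Pik3r1, Pck1 and Slc2a4 by highest fold, beside 3189 of all 15914 genes, and for the same 5 genes by q percentile, beside 15.1%. Region 6 (chr11:69946539-69948203), which spans the transcript start, was called in all 12 libraries of days 6 and 9 and none earlier. Region 8 (chr11:69949142-69949641, 1.32 kb upstream) was called in 1 DKO library of day 6 and all 6 of day 9, at folds of 4.12 to 5.66 in WT and 5.91 to 8.27 in DKO. Region 3 (chr11:69943916-69944928), over a coding exon, was called in the 3 DKO libraries of day 9 alone (exact conditional p = 0.1, adjusted p = 0.662).

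**Figure D3:**
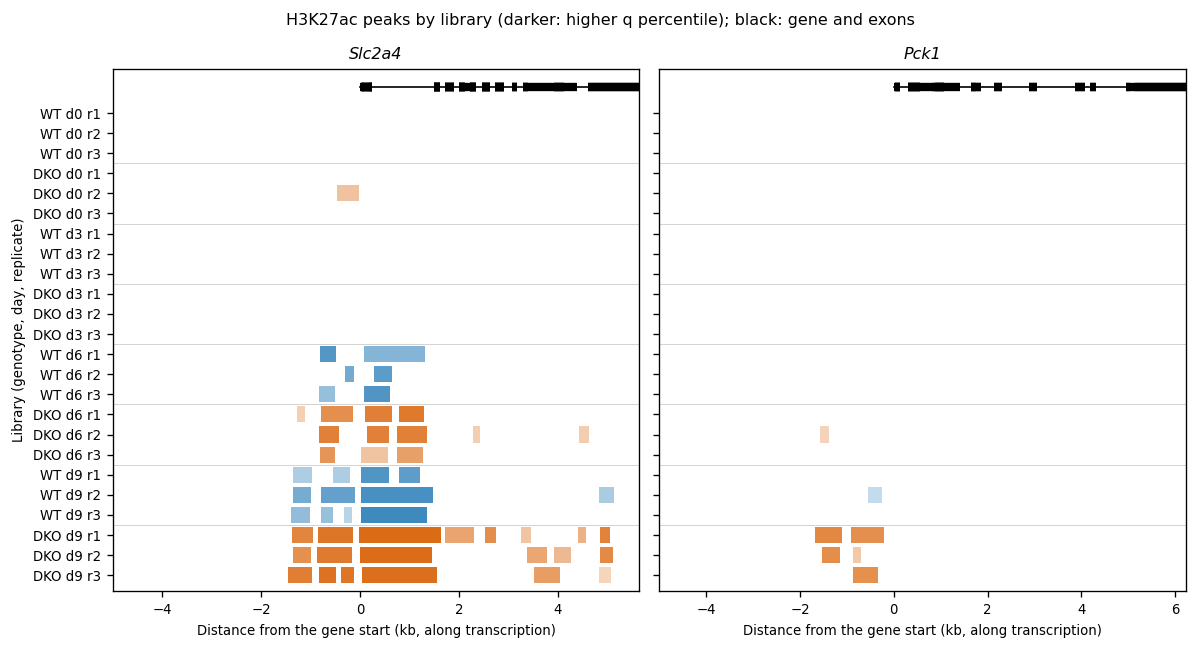
H3K27ac peaks by library (rows, grouped by genotype and day) along the Slc2a4 and Pck1 windows, with distance from the gene start in kb along transcription on the x axis, darker bars for a higher q percentile and the gene with its exons in black. Slc2a4 is empty at days 0 and 3 but for 1 DKO library, and the widest bars are in DKO at day 9, where Pck1 also has its 3 darkest bars.

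The intermediate steps were less clear in the tests. From day 0 to day 3 Irs1 and Slc2a1 fell and 0 members rose, where 25.2% of all genes passed, 180 higher and 3826 lower. Pik3r1 stood 8.86 kb lower without passing (adjusted p = 0.0845, exact permutation). From day 3 to day 6 no gene of the 15914 passed, the smallest adjusted p being 0.0596. At an unadjusted p under 0.05, 7 members were higher at day 6, beside 18.3% of all genes, with means higher by 9.44 kb for Insr, 3.53 kb for Irs1, 4.69 kb for Irs2, 10.3 kb for Pik3r1, 6.71 kb for Akt2, 3.20 kb for Foxo1 and 1.35 kb for Slc2a4. Without DKO day 6 replicate 3 all 7 passed (adjusted p = 0.0357, exact permutation), beside 14.0% of all genes in either direction, and without WT day 3 replicate 3 the 5 genes Insr, Irs1, Irs2, Akt2 and Foxo1 were higher and Slc2a1 lower (adjusted p = 0.0458), beside 10.9%. From day 6 to day 9 again 0 genes passed, with a smallest adjusted p of 0.0545, and Akt2 (3.30 kb) and Slc2a4 (1.62 kb) were higher at an unadjusted p under 0.05, beside 29.3% of all genes. With 400 relabellings the smallest possible p of these day tests was 0.005.

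By the rank of the strongest peak, a measure that does not use peak length, 5 of the 9 genes rose between day 0 and day 9, beside 13.2% of all genes, and 0 fell, beside 8.43%. These were Slc2a4 by 79.5 percentile points, Foxo1 by 17.3, Insr by 4.42, Akt2 by 1.97 and Pik3r1 by 1.05, each with an adjusted p of 0.0291 in the exact permutation test. Pck1 had a mean difference of 31.3 points (adjusted p = 0.134), Irs2 10.6 (0.0609) and Irs1 2.96 (0.0840) in the same permutation test. Slc2a1 differed by -1.49 points (adjusted p = 0.403, exact permutation), so its loss was seen in length, while the rank of its strongest peak did not pass. The lists held 60672 to 111001 peaks at day 0 and 91488 to 115923 at day 9, and a percentile depends on how many weak peaks a list holds. Whether this moved the smaller rises was not tested.

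**Figure D4:**
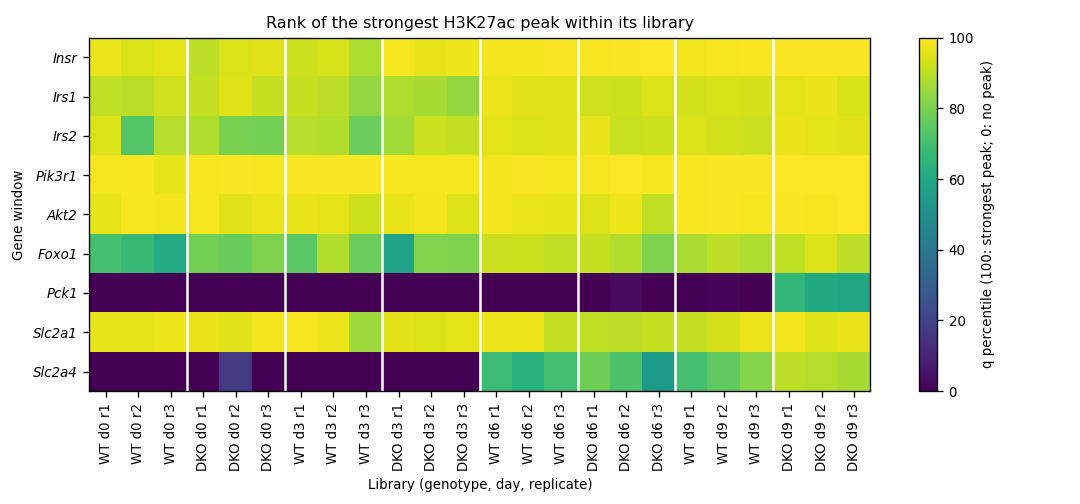
Heat map of the q percentile of the strongest peak in each window (colour, 0 for no peak to 100 for the strongest peak of the list) for the 9 genes (rows) in the 24 libraries (columns). Slc2a4 and Pck1 are blank in most early libraries, and Pik3r1 stays at 96.4 or above in every library.

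Averaged over the 4 days, DKO and WT did not differ beyond the spread of the libraries for any of the 9 genes in covered kb, where 0.138% of all genes did. At an unadjusted p under 0.05 there was 1 member, Slc2a4, beside 9.41% of all genes. Its p was 0.005 before and 0.252 after adjustment (genotype permuted exactly within day, 160000 relabellings), with a mean of 0.807 kb in WT and 1.39 kb in DKO. Its daily differences, DKO minus WT, were 0.147, 0, 0.712 and 1.47 kb at days 0, 3, 6 and 9. Insr differed by 0.223 kb on average, but its daily differences were -0.109, -1.65, -5.93 and 8.58 kb. The daily difference of Pik3r1 likewise went from 6.97 kb at day 0 to -4.72, -11.2 and 9.51 kb, that of Irs1 from 0.965 to -2.29, -1.29 and 1.14 kb, and that of Foxo1 from 1.203 to -0.765, -2.03 and 1.62 kb. For these 4 genes the spread of the daily differences passed its test, whose null is no genotype difference on any day (exact permutation with Benjamini-Hochberg adjustment, adjusted p = 0.0311 for Insr, 0.0268 for Pik3r1, 0.0409 for Irs1 and 0.0214 for Foxo1), as it did for 14.8% of all genes. Without DKO day 6 replicate 3 only Foxo1 passed (adjusted p = 0.0354 in the same permutation test), beside 4.23% of all genes, and without WT day 3 replicate 3 Irs2 and Akt2 passed as well (0.0250 and 0.0216), beside 29.4%. By q percentile 0 members differed between genotypes over days, beside 3.05% of all genes.

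With 3 libraries against 3 the smallest exact p on 1 day is 0.1, so the days are described by which groups did not overlap. At day 0 DKO was higher for Irs1 and Akt2, beside 17.5% of all genes, and lower for 0 members, beside 0.672%. At day 3 it was lower for Irs1 and Akt2, beside 10.3%, and higher for 0 members, beside 0.817%. At day 6 DKO was lower for Insr, Irs2, Pik3r1, Foxo1 and Slc2a1, beside 56.9% of all genes, and 0 members were higher, beside 0.0817%. At day 9 DKO was higher for Insr, Irs2, Pik3r1, Foxo1, Pck1 and Slc2a4, beside 28.0% of all genes, and 0 members were lower, beside 1.99%. Slc2a4 at day 6 had the higher mean in DKO with overlapping groups, 1.38 to 1.89 kb in DKO and 0.58 to 1.57 kb in WT. Without WT day 3 replicate 3, 7 members were lower in DKO at day 3 in place of 2, beside 49.2% of all genes in place of 10.3%.

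The daily directions ran with the total length under peaks in each library, so the same values were also scaled to a common total of 50.7 Mb. Scaled in this way, DKO exceeded WT over the 4 days for Irs2 by 2.01 kb (adjusted p = 0.0119, exact permutation) and for Slc2a4 by 0.740 kb (adjusted p = 0.0270), beside 8.54% of all genes that were higher, and lay below WT for Slc2a1 by 1.11 kb (adjusted p = 0.00813), beside 5.35% that were lower. These 3 calls were also made without DKO day 0 replicate 2, without WT day 3 replicate 3 and without DKO day 6 replicate 3. The scaled Slc2a4 level was 0.877 ± 0.467 kb for WT against 2.88 ± 0.431 kb for DKO at day 6, and 2.03 ± 0.343 against 2.90 ± 0.157 kb at day 9 (SD, n = 3). The scaled Slc2a1 level was 8.27 ± 0.0947 kb for WT against 6.61 ± 0.376 kb for DKO at day 6, and 8.55 ± 0.433 against 6.72 ± 0.694 kb at day 9. Both genes thus kept at days 6 and 9 the direction of their unscaled means, Slc2a4 higher and Slc2a1 lower in DKO.

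**Figure D5:**
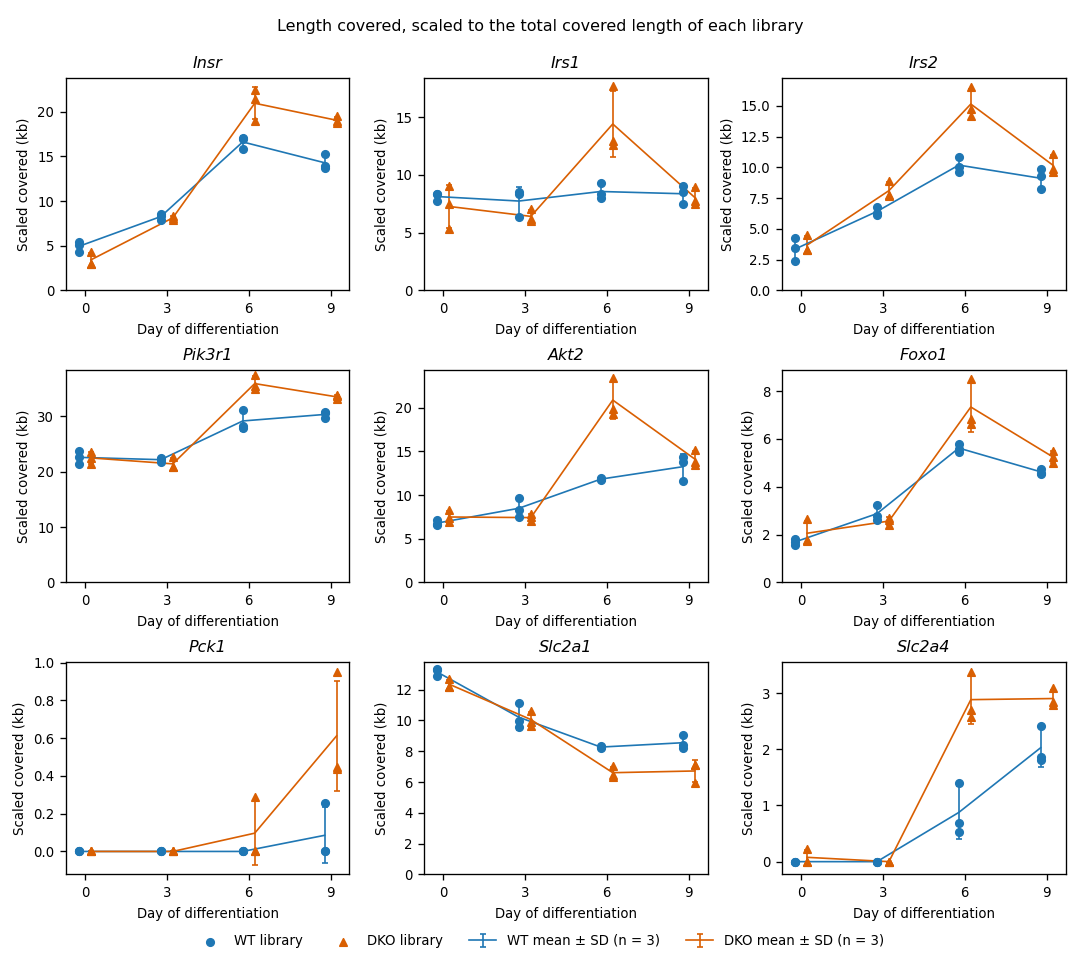
Covered kb scaled to a common total of covered length (y axis) for the 9 genes by day (x axis), with WT as blue circles and DKO as orange triangles, 1 point per library and lines through the group means ± SD (n = 3). At day 6 the DKO points lie above the WT points for 7 genes and below them for Slc2a1, the reverse of the unscaled values for Insr, Irs2, Pik3r1 and Foxo1.

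For other members the scaling turned the day 6 direction. The scaled difference at day 6 was 4.33 kb for Insr, 5.84 kb for Irs1, 4.96 kb for Irs2, 6.75 kb for Pik3r1, 9.05 kb for Akt2 and 1.72 kb for Foxo1, DKO being higher where the unscaled means were lower. Together with Slc2a4 these made 7 genes with DKO above WT without overlap, beside 36.0% of all genes, and Slc2a1 was the 1 below, beside 13.7%. At day 0 the scaled groups did not overlap for Insr and Slc2a1, lower in DKO beside 10.1% of all genes, and 0 members were higher, beside 10.4%. At day 3 Irs2 was higher in DKO, beside 11.7%, and 0 members were lower, beside 7.38%. At day 9 the scaled groups did not overlap for Insr, Pik3r1, Foxo1, Pck1 and Slc2a4, higher in DKO beside 12.8% of all genes, and for Slc2a1, lower beside 12.9%. The spread of the daily differences passed for 0 members after scaling, beside 0.0943% of all genes. Summed over 7 preadipocyte and stromal markers, unscaled coverage at day 6 was 36.3 to 37.2 kb for WT against 11.0 to 16.6 kb for DKO, and at day 9 it was 34.0 to 40.9 against 34.7 to 40.1 kb. Over the 6 adipocyte markers, with Lep at 0, unscaled coverage at day 6 was 53.4 to 58.4 kb for WT against 35.3 to 55.2 kb for DKO. How far the cell types or the yield of each library account for these differences was not tested.

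The calls between days 0 and 9 were the same after this scaling. All 7 genes passed again, each with an adjusted p of 0.0155 in the exact permutation test, beside 42.3% of all genes, 21.4% higher and 20.9% lower. Their scaled differences were 12.5 kb for Insr, 6.13 kb for Irs2, 9.39 kb for Pik3r1, 6.55 kb for Akt2, 3.06 kb for Foxo1, 2.43 kb for Slc2a4 and -5.12 kb for Slc2a1. On the scaled values the step from day 3 to day 6 also passed for all 7 (adjusted p = 0.0321, exact permutation), upward for 6 members, beside 8.26% of all genes, and downward for Slc2a1, beside 7.30%.

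Of the 171 regions, 118 were intronic, 19 lay over a transcript start, 15 over coding exons, 10 upstream, 7 over UTR exons and 2 over exons of non-coding transcripts. In all 24 libraries 17 regions were called, and 82 were called in 1 or 2 libraries. The 8 regions called in all 6 libraries of day 9 and none of day 0 were 3 of Insr, 2 of Akt2, 2 of Slc2a4 and 1 of Irs2. They made up 4.68% of the regions of these windows, beside 2.54% of all regions. The reverse pattern occurred in 0 regions here and in 1.29% of all regions.

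Of 67 other genes of the pathway, 65 had a peak. Between day 0 and day 9, 17 rose and 14 fell, beside the 14.1% of all genes that rose and 13.1% that fell, and their median difference was -0.0125 kb. Among those that passed with large differences were Foxo3 (13.4 kb), Tbc1d4, the AKT substrate that holds GLUT4 vesicles back (10.3 kb), Sort1, a sortilin of GLUT4 vesicles (7.93 kb), Lnpep, the vesicle aminopeptidase (7.34 kb), Grb10, a brake on the receptor (7.13 kb), Hk2, the hexokinase that traps glucose (7.08 kb), Ptpn1, a phosphatase of the receptor (-6.72 kb), Sh2b2, an adaptor (6.26 kb), and Pfkfb3, a regulator of glycolysis (6.19 kb). Each had an adjusted p of 0.0213 in the exact permutation test, except 0.0369 for Lnpep. Of 9 genes of GLUT4 traffic 4 rose and 1 fell, of 4 genes of glucose use 3 rose and 1 fell, of 5 further subunits of phosphatidylinositol 3-kinase 0 rose and 3 fell, and of 14 brakes on the pathway 2 rose and 5 fell. Differences between these small groups were not tested. Of 8 further genes listed under the glucose transporter family, Slc2a13 (5.74 kb) and Slc2a3 (1.31 kb) rose, and Slc2a6 (-3.14 kb) and Slc2a9 (-2.28 kb) fell. Membership of this family does not mean that a protein mainly carries glucose. From day 0 to day 3 only Slc2a13 rose, by 2.18 kb, and 27 fell, among them Grb2 (-8.18 kb) and Ptpn1 (-7.51 kb), each with an adjusted p of 0.0246 in the exact permutation test, beside the 180 genes that were higher and 3826 that were lower among all 15914. Between genotypes over days 0 of the 65 passed.

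Across the 24 libraries the gene whose covered kb ran most like that of Slc2a4 was Sun2 (Pearson r 0.974), followed by Adrb3, the beta 3 adrenergic receptor gene of fat cells (0.969), and Tmem120b (0.968), out of 14620 genes with a peak in at least 6 libraries. The nearest genes of other members were Slc36a2 for Irs2 (0.972), Shld2 for Akt2 (0.979), Mapk6 for Foxo1 (0.976), Anks1 for Pik3r1 (0.986), Jpt1 for Irs1 (0.915), Trio for Slc2a1 (0.987) and Ctcfl for Pck1 (0.937), which lies on the same chromosome. These values are descriptions over libraries that share days, genotypes and covered totals.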

How the data were processed

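H3K27ac ChIP-seq peak lists of 24 libraries were used; the 16 input samples have no peak list and were not analysed here. Per the labels, reads were made into lists with bcl2fastq 2.17, cutadapt 1.18, BWA 07.17 and MACS2 2.1.1.20160309 on mm10, per library. The deposited lists hold, per peak, the MACS2 score, the fold (a ratio of pileup to local background at the summit), and -log10 p and -log10 q values, of which the lowest q was 2.00, so a gene without a peak may carry weaker signal. No signal between peaks and no read totals were used. Which input served which list is not given in the sources used here.

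Overlapping peaks of a library were joined, and the length under peaks was summed over each GENCODE M21 gene span plus 5 kb upstream. The q percentile is the rank of the strongest peak of the window in its own list, 0 without a peak. Reads at a summit were recovered from the fold and p columns of the deposited peaks and came out whole for 100% of peaks (tolerance 0.01). Peaks of all lists sharing at least 1 bp were merged into regions. Groups came from the labels. Genotype was compared by exact two-sided permutation within day, smallest p 1.25e-05, and day within genotype, smallest p 0.005. For the change of the genotype difference with day, the spread of the 4 daily differences was permuted, the null being no genotype difference on any day. Python 3.11.15 with numpy 2.4.6, pandas 2.3.3, scipy 1.17.1, numba 0.67.0 and matplotlib 3.10.9 was used, and the tests were tested on simulated data. All 9 genes were named, with the strongest region of each, those called by day or at an unadjusted genotype p under 0.05, and up to 10 other pathway genes per comparison. Alternatives were stricter q, the 20000 strongest peaks, other windows and scalings, a replicate block and left-out libraries. The members, the gene lists and the tests were chosen with earlier results of these data known.

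Replicate numbers were checked for pairing. Deviations of same-numbered WT and DKO libraries of a day correlated at -0.836 to 0.898, over 0.1 in 4 of 12 pairs. Across days within a genotype, same-numbered libraries correlated at -0.812 to 0.846 (median 0.154), over 0.1 in 18 of 36 pairs. Libraries of different number had a median of -0.0804 there, over 0.1 in 33 of 72 pairs. The main tests did not take the numbers as pairs, and whether they pair libraries across days is not settled by these values. RefSeq promoters matched 7 of the 9 genes. Some genes and regions that the naming rule picks are not reported here.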

Additional observations from a re-analysis of the deposited data

Results flagged for a closer look

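For 4 genes the DKO minus WT difference in covered kb was more spread over the 4 days than under relabelling of genotype within day (exact permutation test with Benjamini-Hochberg adjustment over all genes), as it was for 14.8% of all genes. The null of this test is no genotype difference on any day, so a low p is not by itself a test against a constant difference. Insr had an adjusted p of 0.0311, with DKO 5.93 kb below WT on average at day 6 and 8.58 kb above it at day 9. Irs1 had an adjusted p of 0.0409, Pik3r1 0.0268 and Foxo1 0.0214, and these genes too were lower in DKO at day 6 and higher at day 9. After scaling to the total covered length of each library the adjusted p-values were 0.168 for Insr, 0.151 for Irs1, 0.208 for Pik3r1 and 0.225 for Foxo1, and at day 6 DKO was then higher, by 4.33 kb for Insr, 5.84 kb for Irs1, 6.75 kb for Pik3r1 and 1.72 kb for Foxo1.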

How the results depend on the processing

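The calls depended most on how much of each list was used and on the total under peaks. The lists show only what passed the peak caller, so an absent peak may be weaker signal. Background was taken as the lowest background value shared by many peaks of a list, per length of its narrowest peak. It was lowest in WT day 3 replicate 3, at 4.52 reads per kb. DKO day 6 replicate 3 had the fewest peaks, and its background was 11.4 reads per kb. Whether depth accounts for absent peaks was not tested. Of the counts recomputed under an alternative, 99 stayed within 1.5 times the reported count and 58 did not; of the values of single genes 580 kept direction and call, 37 gained a call, 77 lost it and 52 reversed. The cause of these changes was not tested unless named.

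Between days 0 and 9, with 7 members called in covered kb, 0 were called with the 20000 strongest peaks, 4 within 250 bp of summits and 4 within 1 kb of transcript starts, where Irs2, Pik3r1 and Slc2a1 were lost, beside 0 of 12965, 2267 of 15933 and 1819 of 14175 genes. Leaving out each replicate number or 1 library gave 0 to 8, beside 0 to 43.4% of all genes. The 0 arose because 2 libraries a group allow no p below 0.0556. The 8 added Irs1 without DKO day 0 replicate 2, beside 43.4% of all genes. By q percentile, with 5 called, the left-out libraries gave 0 to 6, beside 0 to 21.8% of all genes. From day 0 to day 3, with 2 called, 0 were called with the 20000 strongest peaks, 0 around summits, 0 at transcript starts and 4 after scaling (Insr, Irs2 and Foxo1 higher, Slc2a1 lower), beside 0 of 12965, 0 of 15933, 1687 of 14175 and 5177 of 15914 genes. With libraries left out 0 to 2 were called, beside 0 to 25.2% of all genes. Without WT day 3 replicate 3 the count was 1, beside 20.7%. From day 3 to day 6, with 0 called, scaling gave 7, beside 2476 of 15914 genes, and left-out libraries 0 to 7, beside 0 to 14.0%. From day 6 to day 9, with 0 called, scaling gave 1 (Foxo1, lower), beside 2171 of 15914.

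The genotype difference over days, with 0 called, gave 3 after scaling, and 3 to 4 when scaling was combined with leaving out DKO day 0 replicate 2, WT day 3 replicate 3 or DKO day 6 replicate 3, combinations chosen after seeing the data, as was leaving out DKO day 6 replicate 3. For its change with day, with 4 called, 0 were called with the 20000 strongest peaks, 0 around summits, 2 at transcript starts and 0 after scaling, beside 0 of 12965, 0 of 15933, 757 of 14175 and 15 of 15914 genes, and 0 to 6 with libraries left out, 1 without DKO day 6 replicate 3. Genes whose genotypes did not overlap numbered 2 at day 0, but 1 at a -log10 q of at least 5, 1 with the 20000 strongest peaks, 1 without the upstream 5 kb and 2 to 5 with libraries left out. At day 3 they numbered 2, but 1 at the stricter q, 0 around summits, 1 without the upstream part, 1 after scaling and 2 to 7 with libraries left out. At day 6 they numbered 5, but 1 with the 20000 strongest peaks, 3 around summits and 8 after scaling. After scaling 36.0% of all genes were higher in DKO without overlap and 13.7% lower. At day 9 they numbered 6, but 2 around summits and 2 at transcript starts. Regions with an unadjusted genotype p under 0.05 numbered 1, but 2 where peaks had to cover 50% of a region and 0 to 3 with libraries left out. Regions called in all libraries of day 9 and none of day 0 numbered 8, but 5 at the stricter q and 0 with the 20000 strongest peaks. Counts in this paragraph without a share over all genes or regions beside them describe these windows alone.

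With the replicate number as a block the counts were 0 between days 0 and 9 in covered kb and in q percentile, 0 between days 0 and 3 and 0 for the change with day. The block leaves too few relabellings for a day comparison, with a smallest possible p of 0.03125. The day counts therefore do not speak to the size of an effect. For the change with day the smallest possible p was 0.000488. Its adjusted p-values were 0.0810 for Insr, 0.102 for Irs1, 0.0534 for Pik3r1 and 0.0505 for Foxo1 (exact permutation within blocks). With the block 0 of 15914 genes passed in each of these comparisons. Why the block changed the count for the change with day was not tested.

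Reversed values of the genotype difference in covered kb were 0.402 for Irs1 and 0.748 for Slc2a1 with the 20000 strongest peaks. Around summits they were -1.60 for Insr, -2.49 for Pik3r1, -0.215 for Akt2 and -0.198 for Foxo1, and at transcript starts -0.175 for Pik3r1 and -0.117 for Foxo1. Scaling gave Irs1 0.835, and 0.420 to 1.08 with libraries also left out (0.932 without WT day 3 replicate 3). With libraries left out the ranges were -0.420 to 1.23 for Insr, -0.197 to 1.34 for Irs2, -1.26 to 1.55 for Pik3r1 and -0.326 to 0.292 for Foxo1.

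From day 0 to day 3 the reversed values were -0.401 for Insr and 0.186 for Foxo1 with the 20000 strongest peaks, 1.73 for Irs1 around summits, -0.106 for Insr and 0.301 for Foxo1 at transcript starts, 0.814 for Akt2 and 0.845 for Foxo1 after scaling, and Foxo1 ran from -0.628 to 0.384 with libraries left out. From day 6 to day 9 they were -0.958 for Insr, -1.64 for Irs2 and -0.140 for Foxo1 with the 20000 strongest peaks, -0.312 for Irs1 around summits, and after scaling -2.12 for Insr, -3.27 for Irs1, -3.01 for Irs2, -0.608 for Pik3r1, -2.66 for Akt2 and -1.54 for Foxo1. For the genotype difference in q percentile, ranking by fold gave Irs1 0.0522, and leaving out libraries gave -0.778 to 0.187 for Irs1, -0.274 to 1.74 for Irs2, -0.740 to 0.0206 for Akt2, -0.452 to 2.18 for Foxo1 and -1.57 to 1.09 for Slc2a1.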
